A study of Mus musculus with 15 samples.

Results

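A set of 10 genes of prostaglandin and lipoxygenase metabolism were followed across the colons of 15 mice: Ptgs1, Ptgs2, Ptges, Hpgds, Hpgd, Ptger2, Ptger4, Alox5, Alox5ap and Alox15. They were picked by name as the enzymes and receptors of these pathways, and 9 of the 10 have a probe set named in the annotation used here, out of 22142 probe sets on the array. A probe set for Ptgs1 is not among the named ones, so this gene is not analysed here. No member has a second probe set.

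The 3 groups held 5 mice each, all 11 weeks old. NEMO IEC-KO Ripk1 S166A/S166A mice lack NEMO (the product of Ikbkg, a subunit of the IκB kinase complex) in intestinal epithelial cells and carry RIPK1 with alanine in place of serine at the autophosphorylation site on both alleles. Below they are called Ripk1 S166A/S166A mice. NEMO IEC-KO mice, labelled Ripk1 wt/wt, lack epithelial NEMO and have unmodified RIPK1. NEMO FL mice carry the floxed Nemo gene and served as controls. Deletion was driven by Cre under the Villin promoter, which is active in the epithelial cells of the gut, so the other cells of the colon keep NEMO, and the knock-in allele, made by genome editing, is present in every cell. RNA came from colon tissue and was hybridised to Clariom S mouse arrays, 1 array per mouse. In such bulk RNA, fewer cells of a type and less RNA per cell cannot be told apart. The design asks what epithelial NEMO loss does to these transcripts, and which of those differences the RIPK1 substitution changes.

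Arachidonic acid, released from membranes by phospholipases A, is the common substrate of both branches. Cyclooxygenases (the constitutive Ptgs1 and the inducible Ptgs2) convert it to prostaglandin H, from which Ptges makes prostaglandin E and Hpgds makes prostaglandin D. Prostaglandin E signals through receptors such as those encoded by Ptger2 and Ptger4 and is inactivated by the dehydrogenase Hpgd, while the lipoxygenase Alox5, presented with substrate by its partner Alox5ap, starts leukotriene synthesis and Alox15 makes other hydroxylated fatty acids. In the gut, prostaglandin E is known both for supporting epithelial repair and for its part in inflammation, and leukotrienes are known as products of myeloid cells.

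Ikbkg, the deleted gene, averaged 5.29 ± 0.0854 in Ripk1 S166A/S166A mice, 5.16 ± 0.185 in NEMO IEC-KO mice and 6.38 ± 0.152 in NEMO FL mice (log2 values, SD, n = 5 each). It was lower in both deleted groups than in NEMO FL mice, with log2 differences of −1.09 in Ripk1 S166A/S166A mice (limma, adjusted p = 3.48e-04) and −1.21 in NEMO IEC-KO mice (limma, adjusted p = 4.71e-06). One NEMO FL mouse, number 55, is wild type by its title but NEMO IEC-KO by its genotype label. It was kept with NEMO FL, as its title has it. Its Ikbkg value was 6.28, within the NEMO FL range (6.18 to 6.55) and above every NEMO IEC-KO value (4.85 to 5.30). Counting mouse 55 as NEMO IEC-KO, an alternative used below, goes by its genotype label and against this value. Read from the mean log2 level of 3 Y-chromosome genes, all 5 Ripk1 S166A/S166A mice were male, as were 2 of the NEMO IEC-KO mice and 1 NEMO FL mouse (number 55), so sex and genotype are mixed in every comparison. The arrays of Ripk1 S166A/S166A mice 94 and 95 had narrower interquartile ranges (3.06 and 3.01) than the other 13 (3.22 to 3.40). Epithelial markers were present throughout, and the mean level of 7 colon epithelium genes was 10.8 to 11.1 in Ripk1 S166A/S166A mice, 10.7 to 11.0 in NEMO IEC-KO mice and 10.7 to 11.0 in NEMO FL mice.

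The sequence upstream of the start is shown for 4 members of the prostaglandin branch that were called in both comparisons with NEMO IEC-KO colons, Ptgs2 and Ptges being higher and Hpgds and Hpgd lower there. The windows, each written 5′ to 3′ along the strand of its gene, are the 250 bases before the start of each gene in RefSeq (GRCm38.p6), which has such a window for 8 of the 10 genes and none here for Alox5ap and Alox15. The motifs searched on both strands were the TATA box TATAAA, the NF-κB-type motif GGGNNTTTC, the C/EBP-type motif TTGCNNAA with its looser form TTNCNNAA, the E-box CANNTG, the cAMP response element TGACGTCA with its shorter form CGTCA, and the STAT-type motif TTCNNNGAA. TTGCNNAA matches are also TTNCNNAA matches, and TGACGTCA holds CGTCA. Capitals mark every match other than CANNTG.
Ptgs2, chr1:150099781-150100030, plus strand: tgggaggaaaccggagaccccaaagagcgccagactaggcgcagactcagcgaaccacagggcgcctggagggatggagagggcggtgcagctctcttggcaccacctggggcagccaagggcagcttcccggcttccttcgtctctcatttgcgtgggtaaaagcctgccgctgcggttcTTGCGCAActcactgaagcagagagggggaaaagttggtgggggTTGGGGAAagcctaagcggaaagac
Ptges, chr2:30903298-30903547, minus strand: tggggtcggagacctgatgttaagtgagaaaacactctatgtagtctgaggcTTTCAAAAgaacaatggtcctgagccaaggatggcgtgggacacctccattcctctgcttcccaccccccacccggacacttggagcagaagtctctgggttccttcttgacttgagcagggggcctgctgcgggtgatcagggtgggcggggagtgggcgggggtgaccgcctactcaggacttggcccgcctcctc
Hpgds, chr6:65144731-65144980, minus strand: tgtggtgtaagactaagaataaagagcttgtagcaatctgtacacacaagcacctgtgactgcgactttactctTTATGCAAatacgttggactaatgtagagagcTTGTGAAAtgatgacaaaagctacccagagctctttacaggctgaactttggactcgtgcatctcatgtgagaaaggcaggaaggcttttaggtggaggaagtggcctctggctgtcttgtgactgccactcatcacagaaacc
Hpgd, chr8:56294302-56294551, plus strand: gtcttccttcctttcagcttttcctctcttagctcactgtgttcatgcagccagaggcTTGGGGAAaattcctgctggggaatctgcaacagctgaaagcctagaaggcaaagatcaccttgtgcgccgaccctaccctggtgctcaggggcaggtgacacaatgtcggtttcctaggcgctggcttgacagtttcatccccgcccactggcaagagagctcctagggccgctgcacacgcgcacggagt

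The Ptgs2 window held TTGCGCAA at positions −69 to −62, counted from the start, which reads as TTGCNNAA on both strands, and a second TTNCNNAA match on the opposite strand at −25 to −18. TTGCNNAA is found in 10.8% and TTNCNNAA in 40.7% of the 32851 RefSeq windows, which run from 250 bases before to 50 after the start. Ptges had 1 TTNCNNAA match at −198 to −191. Hpgds had 1 TTGCNNAA match, on the opposite strand at −176 to −169, and a second TTNCNNAA match, also on the opposite strand, at −144 to −137. Hpgd had 1 TTNCNNAA match on the opposite strand at −192 to −185. CANNTG, present in 72.3% of windows, matched each of the 4 genes. Just after the start, Ptgs2 held CGTCA at 14 to 18 (20.8% of windows), overlapping a CANNTG match at 17 to 22, and Hpgd held TATAAA at 5 to 10 (13.6% of windows). In the next sequences capitals mark those matches, CANNTG included.
Ptgs2 around its start, chr1:150100032-150100061, plus strand: gagtcaccactaCGTCACGTGgagtccgct
Hpgd around its start, chr8:56294544-56294573, plus strand: cacggagtgggcTATAAAagctgctgcggc
GGGNNTTTC, in 4.36% of windows, matched only Ptger4 among the 8 genes, at −242 to −234, and TGACGTCA (1.79% of windows) and TTCNNNGAA (8.3%) matched none of them. A match is a description of the letters and not a binding site.

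In NEMO IEC-KO colons, 7 of the 9 measured members differed from NEMO FL colons. Ptgs2, Ptges, Alox5ap and Alox15 were higher and Hpgds, Hpgd and Ptger2 lower, while Ptger4 and Alox5 did not pass the test. Ptgs2 and Ptges, the 2 inducible enzymes on the path to prostaglandin E, were thus among the higher transcripts. Hpgd, which inactivates prostaglandin E, was among the lower ones. Prostaglandin E itself was not measured here. Calls are limma adjusted p under 0.05, adjusted by Benjamini-Hochberg together for the 22142 probe sets. The 4 higher members stand beside a background of 11.6% of all probe sets called higher, and the 3 lower ones beside 13.8% called lower. Members moved in both directions, and the median log2 change of the 9 was 0.141 (that of Alox5), against 0.0121 over all probe sets.

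In Ripk1 S166A/S166A colons, 5 of the 9 differed from NEMO IEC-KO colons. Hpgds and Hpgd were higher, where 9.33% of all probe sets were called higher, and Ptgs2, Ptges and Alox5ap were lower, where 9.9% were called lower. The median log2 change was −0.0108, against 0.0203 over all probe sets. Both comparisons use the same NEMO IEC-KO mice, so the values of a gene in the 2 comparisons are not independent. Ripk1 S166A/S166A colons set against NEMO FL colons gave 0 calls among the 9 members by limma at an adjusted p under 0.05, where 0.0181% of all probe sets were called higher (4) and 0.0361% lower (8). At an unadjusted limma p under 0.05, 3 members passed (Alox15, Alox5ap and Hpgd), where 10.6% of all probe sets did. The median change was 0.0877, against 0.00672 over all probe sets.

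**Figure D1:**
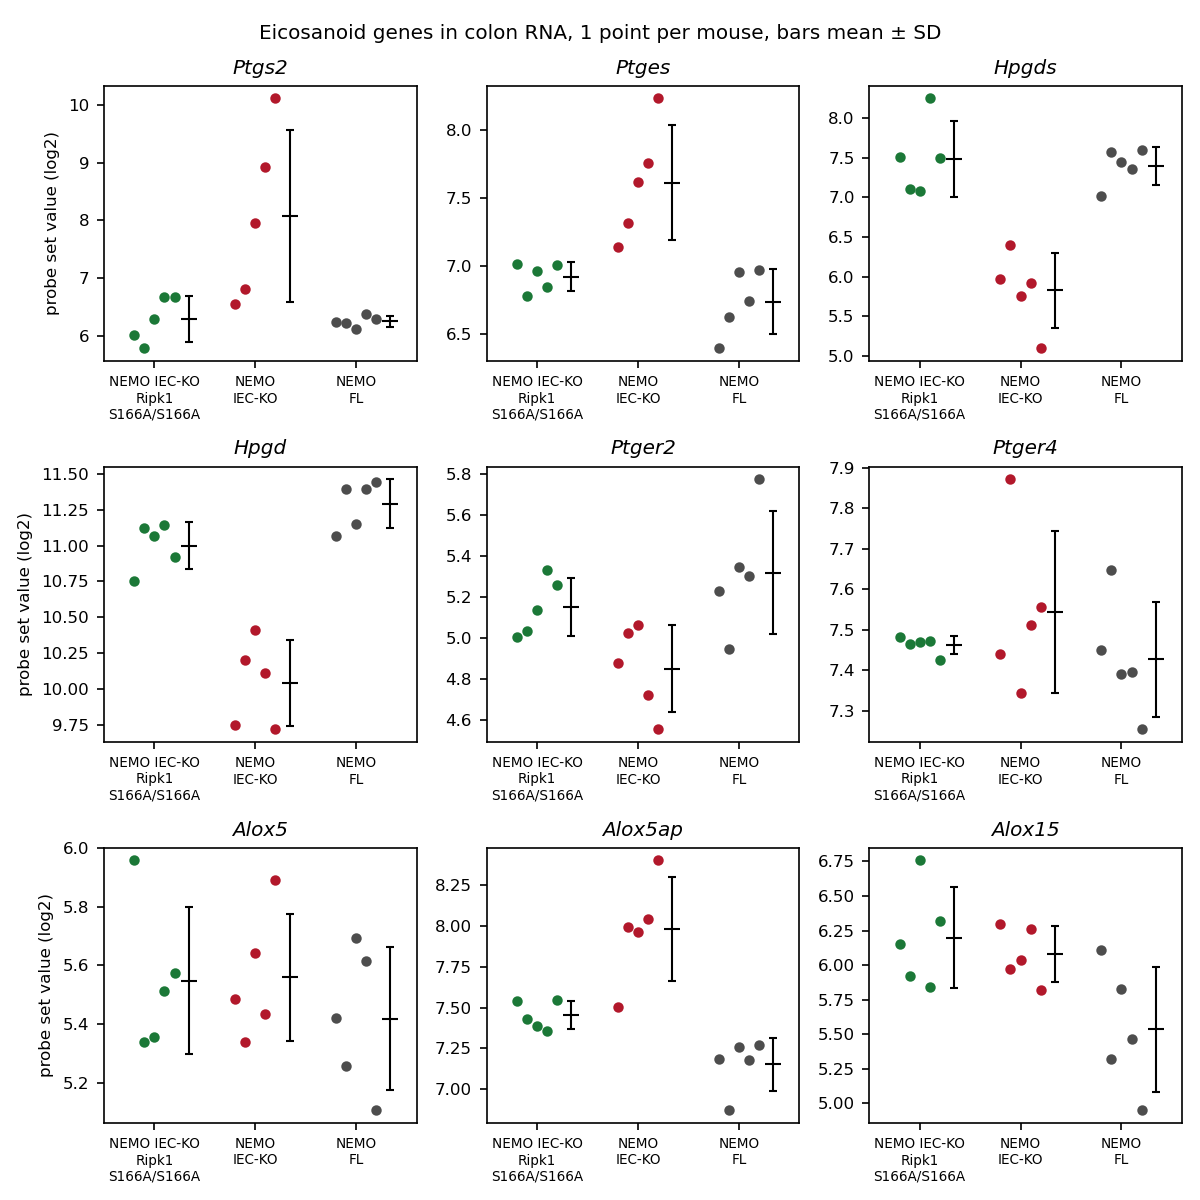
Probe set values (log2, vertical axes that differ between panels) of the 9 measured genes, 1 point per mouse, for NEMO IEC-KO Ripk1 S166A/S166A, NEMO IEC-KO and NEMO FL mice from left to right, with the mean and SD (n = 5) as a bar to the right of each group. The NEMO IEC-KO points of Ptgs2 spread from 6.55 to 10.11, and those of Hpgds and Hpgd lie below every point of the other 2 groups.

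Ptgs2, the inducible cyclooxygenase, had values of 6.01, 5.78, 6.29, 6.67 and 6.67 in Ripk1 S166A/S166A mice (94, 95, 33, 27 and 56). In NEMO IEC-KO mice they were 6.55, 6.81 and 7.96 in mice 16, 30 and 31, and 8.93 and 10.11 in the fourth and the fifth mouse of that group. In NEMO FL mice they were 6.24, 6.22, 6.11, 6.38 and 6.29 (18, 22, 28, 29 and 55). All NEMO IEC-KO values thus lay above all NEMO FL values, but mice 16 and 30 were close to the NEMO FL level, and mouse 16 lay below 2 of the Ripk1 S166A/S166A mice. The SD was 0.397 in Ripk1 S166A/S166A mice, 1.48 in NEMO IEC-KO mice and 0.100 in NEMO FL mice. Ptgs2 was higher in NEMO IEC-KO than in NEMO FL colons by 1.83 on the log2 scale (SE 0.492, limma adjusted p = 0.0128), a 3.54-fold difference. In Ripk1 S166A/S166A colons it was lower than in NEMO IEC-KO colons (log2 difference −1.79, SE 0.505, limma adjusted p = 0.0215), which is 3.45-fold, with overlapping groups. Against NEMO FL, the Ripk1 S166A/S166A value differed by 0.04, with an interval of −0.303 to 0.379. The call against NEMO FL was lost with an intensity trend and robust variances (limma adjusted p = 0.0692), with mouse 55 counted as NEMO IEC-KO (0.133) and in females alone (0.134). That against NEMO IEC-KO was lost with the trend (0.103), with mouse 55 counted as NEMO IEC-KO (0.118), without Ripk1 S166A/S166A mice 94 and 95 (0.144), without mouse 95 alone (0.0609) and without the fourth NEMO IEC-KO mouse (0.0585).

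Ptges, the inducible prostaglandin E synthase that works with Ptgs2, had values of 7.01, 6.77, 6.96, 6.85 and 7.00 in Ripk1 S166A/S166A mice. In NEMO IEC-KO mice they were 7.14, 7.32, 7.62, 7.76 and 8.24, in the same order of mice as for Ptgs2, against 6.39, 6.62, 6.95, 6.74 and 6.97 in NEMO FL mice. The lowest NEMO IEC-KO value lay above the highest of both other groups. Ptges was higher in NEMO IEC-KO than in NEMO FL colons by 0.88 (SE 0.184, limma adjusted p = 0.00252), a 1.84-fold difference, and this call held under every alternative run at that threshold. In Ripk1 S166A/S166A colons it was lower than in NEMO IEC-KO colons (log2 difference −0.69, SE 0.174, limma adjusted p = 0.0112). The call against NEMO IEC-KO was lost with mouse 55 counted as NEMO IEC-KO (0.0782) and without mice 94 and 95 (0.0599).

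Hpgds, the haematopoietic prostaglandin D synthase, known from mast cells and tuft cells, had values of 7.50, 7.10, 7.08, 8.25 and 7.50 in Ripk1 S166A/S166A mice. In NEMO IEC-KO mice they were 5.97, 6.40, 5.75, 5.92 and 5.10, against 7.01, 7.57, 7.45, 7.36 and 7.59 in NEMO FL mice. No NEMO IEC-KO value reached 6.5, and no value of the other groups fell under 7. Hpgds was lower in NEMO IEC-KO than in NEMO FL colons (log2 difference −1.57, SE 0.195, limma adjusted p = 3.49e-05), which is 2.96-fold. In Ripk1 S166A/S166A colons it was higher than in NEMO IEC-KO colons by 1.66 (SE 0.238, limma adjusted p = 2.46e-04), a 3.15-fold difference, and differed from NEMO FL by 0.09 with an interval of −0.322 to 0.497. The adjusted p against NEMO FL was 0.0521 when mouse 55 was counted as NEMO IEC-KO. Between NEMO IEC-KO and NEMO FL colons, 4 of 10 mast cell markers were higher and 1 was lower. Of 10 tuft cell markers 1 was higher and 1 lower, where 11.6% of all probe sets were called higher and 13.8% lower. Between Ripk1 S166A/S166A and NEMO IEC-KO colons, 1 marker of each list was higher and 1 lower.

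Hpgd, the dehydrogenase that inactivates prostaglandin E and a known product of mature colonocytes, had values of 10.75, 11.12, 11.07, 11.14 and 10.92 in Ripk1 S166A/S166A mice. In NEMO IEC-KO mice they were 9.75, 10.20, 10.41, 10.11 and 9.72, against 11.06, 11.40, 11.15, 11.40 and 11.44 in NEMO FL mice. The NEMO IEC-KO group lay apart from both others, which overlapped each other. Hpgd was lower in NEMO IEC-KO than in NEMO FL colons (log2 difference −1.25, SE 0.146, limma adjusted p = 1.91e-05), which is 2.38-fold, under every alternative run at that threshold. In Ripk1 S166A/S166A colons it was higher than in NEMO IEC-KO colons by 0.96 (SE 0.149, limma adjusted p = 4.50e-04), a 1.95-fold difference that lost its call with mouse 55 counted as NEMO IEC-KO (0.0885). Against NEMO FL colons the Ripk1 S166A/S166A difference was −0.29, with an interval of −0.545 to −0.0362 and a limma adjusted p of 0.438 (unadjusted 0.0277).

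Of the 2 prostaglandin E receptors, Ptger2 passed the test in 1 comparison and Ptger4 in 0 by limma. Ptger2 had values of 5.00, 5.03, 5.14, 5.33 and 5.26 in Ripk1 S166A/S166A mice, 4.88, 5.02, 5.06, 4.72 and 4.56 in NEMO IEC-KO mice and 5.23, 4.94, 5.35, 5.30 and 5.77 in NEMO FL mice. The groups overlapped. Ptger2 was lower in NEMO IEC-KO than in NEMO FL colons (log2 difference −0.47, SE 0.152, limma adjusted p = 0.0329), and in Ripk1 S166A/S166A colons it differed from NEMO IEC-KO colons by 0.30 (limma adjusted p = 0.121). The call was lost on leaving out any one of 6 mice, namely NEMO IEC-KO mouse 16, the fourth and the fifth of that group and NEMO FL mice 28, 29 and 55 (limma adjusted p 0.0505 to 0.0760), with array weights (0.0503), with mouse 55 counted as NEMO IEC-KO (0.562) and in females alone (0.112). Ptger4 ranged from 7.43 to 7.48 in Ripk1 S166A/S166A mice, from 7.34 to 7.87 in NEMO IEC-KO mice, and in NEMO FL mice from 7.25 to 7.65. Its log2 difference was 0.12 between NEMO IEC-KO and NEMO FL colons (interval −0.146 to 0.380) and −0.08 between Ripk1 S166A/S166A and NEMO IEC-KO colons (interval −0.337 to 0.174).

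In the lipoxygenase branch, Alox5 itself ranged from 5.34 to 5.96 in Ripk1 S166A/S166A mice, from 5.34 to 5.89 in NEMO IEC-KO mice, and in NEMO FL mice from 5.11 to 5.70. Its differences were 0.14 (interval −0.162 to 0.443) for NEMO IEC-KO against NEMO FL and −0.01 (interval −0.324 to 0.302) for Ripk1 S166A/S166A against NEMO IEC-KO. Alox5ap, the membrane protein that hands arachidonic acid to Alox5, had values of 7.54, 7.43, 7.39, 7.36 and 7.55 in Ripk1 S166A/S166A mice, 7.50, 7.99, 7.96, 8.04 and 8.40 in NEMO IEC-KO mice and 7.18, 6.87, 7.26, 7.18 and 7.27 in NEMO FL mice. NEMO IEC-KO mouse 16 lay within the Ripk1 S166A/S166A range, and all values of both deleted groups lay above those of NEMO FL. Alox5ap was higher in NEMO IEC-KO than in NEMO FL colons by 0.83 (SE 0.150, limma adjusted p = 8.56e-04), a 1.77-fold difference that held under every alternative run at that threshold. In Ripk1 S166A/S166A colons it was lower than in NEMO IEC-KO colons (log2 difference −0.53, SE 0.147, limma adjusted p = 0.0204), a call lost with mouse 55 counted as NEMO IEC-KO (0.164), with a sex term (0.0707) and without mice 94 and 95 (0.0692). Against NEMO FL the Ripk1 S166A/S166A difference was 0.30 (interval 0.0666 to 0.535), with no overlap but a limma adjusted p of 0.414 (unadjusted 0.0151).

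Alox15, the leukocyte-type lipoxygenase of mice, had values of 6.15, 5.92, 6.76, 5.84 and 6.32 in Ripk1 S166A/S166A mice, 6.30, 5.97, 6.04, 6.26 and 5.82 in NEMO IEC-KO mice and 6.11, 5.32, 5.83, 5.47 and 4.95 in NEMO FL mice. The 2 deleted groups covered much the same range, and NEMO FL mouse 18 lay within both. Alox15 was higher in NEMO IEC-KO than in NEMO FL colons by 0.54 (SE 0.186, limma adjusted p = 0.0433) and differed by 0.12 (interval −0.238 to 0.478) between Ripk1 S166A/S166A and NEMO IEC-KO colons. Set against NEMO FL, the Ripk1 S166A/S166A difference was 0.66 (interval 0.223 to 1.10), with a limma adjusted p of 0.368 (unadjusted 0.00573). The call of NEMO IEC-KO against NEMO FL was lost on leaving out any one of 7 mice, namely NEMO IEC-KO mice 16, 30 and 31 and the fourth of that group and NEMO FL mice 22, 29 and 55 (limma adjusted p 0.0524 to 0.103), with array weights (0.0533), with mouse 55 counted as NEMO IEC-KO (0.634) and in females alone (0.270).

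**Figure D2:**
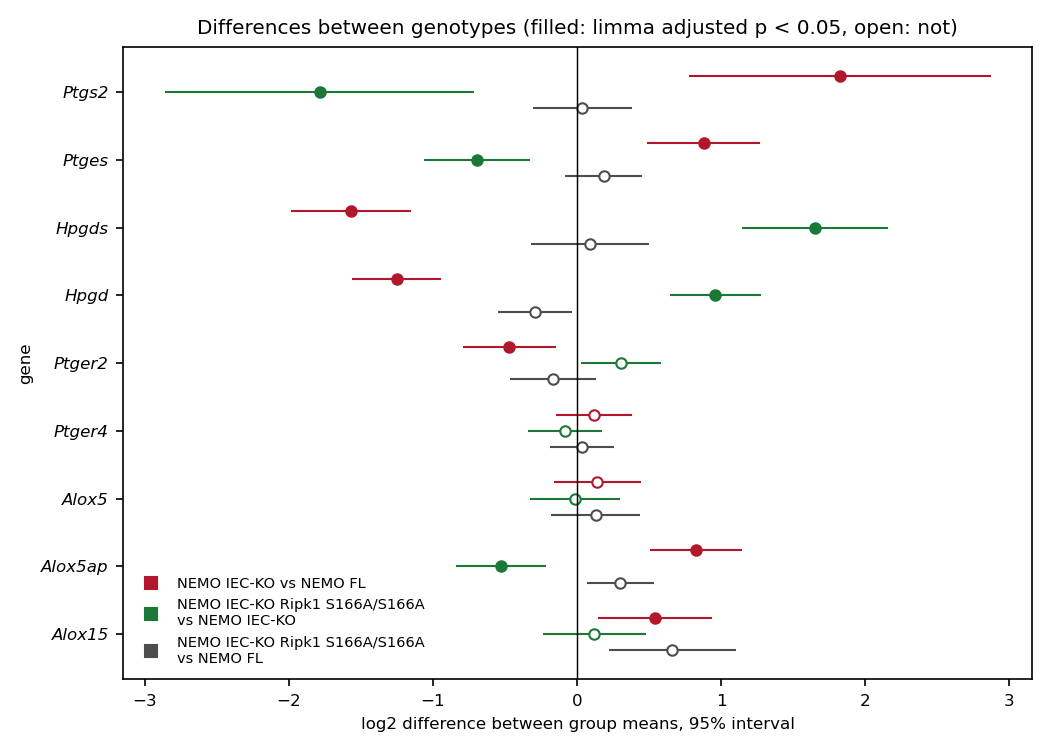
Log2 differences between group means with 95% intervals (horizontal axis) for the 9 measured genes in 3 comparisons, each the first-named group minus the second. Filled points passed a limma adjusted p under 0.05, and the open points of NEMO IEC-KO Ripk1 S166A/S166A minus NEMO FL lie between −0.29 and 0.66.

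Without mouse 55 the Ptgs2, Ptges, Hpgds, Hpgd and Alox5ap differences between NEMO IEC-KO and NEMO FL colons were 1.84, 0.94, −1.52, −1.21 and 0.86, all still called, and 5 members were called in place of 7. Among females only (3 NEMO IEC-KO and 4 NEMO FL mice), Ptges, Hpgds, Hpgd and Alox5ap were called, with log2 differences of 0.89, −1.52, −1.36 and 0.84. Among males only, with 5 Ripk1 S166A/S166A mice set beside 2 NEMO IEC-KO mice, the differences of Ptgs2, Ptges, Hpgds, Hpgd and Alox5ap were −2.16, −0.77, 1.65, 0.74 and −0.55, and all 5 were called. As all Ripk1 S166A/S166A mice were male, a sex term gave the same differences, which rest on the same 2 NEMO IEC-KO mice. Between Ripk1 S166A/S166A and NEMO FL mice sex is told apart from genotype only through mouse 55, the single male NEMO FL mouse, and with a sex term 0 members were called by limma, the lowest adjusted p being 0.115 (Alox15, 1.25).

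A wider list of 47 eicosanoid genes, of which 43 were measured, was read from the same fits. In NEMO IEC-KO against NEMO FL colons 8 of the 43 were higher (18.6%, beside 11.6% of all probe sets) and 5 lower (11.6%, beside 13.8%). Set against NEMO IEC-KO colons, Ripk1 S166A/S166A colons had 5 higher (11.6%, beside 9.33%) and 4 lower (9.30%, beside 9.9%). These shares, that of the 8 higher genes of the first comparison included, were not tested against those of all probe sets. The others lay near them. Set against NEMO FL colons, Ripk1 S166A/S166A colons had 0 called by limma. The median log2 change of the 43 was 0.0518 in the first of these comparisons (0.0121 over all probe sets), −0.0211 in the second (0.0203) and 0.0644 in the third (0.00672). Called genes were found among the phospholipases, the prostanoid synthases, the genes of prostaglandin transport and breakdown, those of leukotriene metabolism and the other lipoxygenases, and of the 11 receptors measured 1 was called in 1 comparison of all mice.

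Among 9 phospholipases, Pla2g2a, a secreted enzyme of Paneth cells that is also known to kill bacteria, had the largest change of the list. Its values were 8.31, 6.75, 9.85, 6.89 and 8.23 in Ripk1 S166A/S166A mice, 10.88, 11.76, 11.73, 11.64 and 11.68 in NEMO IEC-KO mice and 7.43, 6.67, 6.76, 6.69 and 5.71 in NEMO FL mice. The NEMO IEC-KO group was apart from the other 2, and Ripk1 S166A/S166A mice 33, 94 and 56 lay above all NEMO FL mice. The log2 difference was 4.88 for NEMO IEC-KO against NEMO FL (SE 0.251, limma adjusted p = 8.00e-09), a 29.5-fold difference, and −3.53 for Ripk1 S166A/S166A against NEMO IEC-KO (SE 0.435, limma adjusted p = 6.79e-05). The second was not called with mouse 55 counted as NEMO IEC-KO (0.112). Some inbred mouse strains, C57BL/6 among them, are known to carry a frameshift in this gene, so a transcript level need not mean active enzyme. Pla2g2e was higher in NEMO IEC-KO than in NEMO FL colons by 0.79 (limma adjusted p = 0.00208). Between Ripk1 S166A/S166A and NEMO IEC-KO colons its log2 difference was −0.47, with a limma adjusted p of 0.0584 that fell under the threshold in 6 alternatives (0.0110 to 0.0486). The other 7 phospholipases, with the cytosolic Pla2g4a at 0.04 for NEMO IEC-KO against NEMO FL, were not called.

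Of 7 other prostanoid synthases, Ptges3, a co-chaperone with prostaglandin E synthase activity, was higher in NEMO IEC-KO than in NEMO FL colons by 0.52 (limma adjusted p = 0.0163) and lower in Ripk1 S166A/S166A colons than in NEMO IEC-KO colons (log2 difference −0.69, limma adjusted p = 0.00596). Cbr1, which can convert prostaglandin E to prostaglandin F, was lower in NEMO IEC-KO than in NEMO FL colons (log2 difference −1.02, limma adjusted p = 0.00242) and higher in Ripk1 S166A/S166A colons than in NEMO IEC-KO colons by 0.79 (limma adjusted p = 0.0183). Prxl2b, a prostaglandin F synthase, was lower in NEMO IEC-KO colons (log2 difference −0.40, limma adjusted p = 0.0394), a call lost without any one of 8 mice: all 5 NEMO FL mice, NEMO IEC-KO mice 16 and 31, and the fifth of that group (0.0532 to 0.0962). Slco2a1, the transporter that brings prostaglandins to Hpgd, was lower in NEMO IEC-KO than in NEMO FL colons (log2 difference −0.70, limma adjusted p = 0.00260) and higher in Ripk1 S166A/S166A colons than in NEMO IEC-KO colons by 0.78 (limma adjusted p = 0.00108), with no overlap in either comparison. Ptgr2, a reductase of the products of Hpgd, was lower in NEMO IEC-KO than in NEMO FL colons (log2 difference −0.61, limma adjusted p = 0.00261) and higher by 0.48 in Ripk1 S166A/S166A colons than in NEMO IEC-KO colons (limma adjusted p = 0.0300), the second call lost without any one of 6 mice, Ripk1 S166A/S166A mice 33, 27 and 56, NEMO IEC-KO mouse 16 and the fourth and the fifth of that group (0.0511 to 0.0775). Ptgr1, with the same activity, was higher in NEMO IEC-KO than in NEMO FL colons by 0.42 (limma adjusted p = 0.0145).

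None of 7 other prostanoid receptors and none of 4 leukotriene and lipoxin receptors was called between NEMO IEC-KO and NEMO FL colons in the fit of all mice. Ptger3, another prostaglandin E receptor, was higher in Ripk1 S166A/S166A colons than in NEMO IEC-KO colons by 0.78 (limma adjusted p = 0.0273). Its call was lost without mouse 94 or mouse 27 (0.0570 and 0.0719), with a sex term (0.342) and in males alone (0.209). Sex term and males alone gave the same difference (0.413), which rests in both on the 2 male NEMO IEC-KO mice. Past Alox5ap, the leukotriene enzymes Lta4h and Ltc4s were not called, at 0.11 and −0.04 for NEMO IEC-KO against NEMO FL. The dipeptidases that trim leukotriene D moved in opposite directions: Dpep1 was lower in NEMO IEC-KO than in NEMO FL colons (log2 difference −1.19, limma adjusted p = 6.59e-05) and higher in Ripk1 S166A/S166A colons than in NEMO IEC-KO colons by 0.81 (limma adjusted p = 0.00924), whereas Dpep2 was higher in NEMO IEC-KO than in NEMO FL colons by 1.16 (limma adjusted p = 0.00254) and lower in Ripk1 S166A/S166A colons than in NEMO IEC-KO colons (log2 difference −1.07, limma adjusted p = 0.00717). Cyp4f18, which degrades leukotriene B in neutrophils, was higher in NEMO IEC-KO colons by 0.45 (limma adjusted p = 0.0313), a call lost without NEMO IEC-KO mouse 31, the fifth of that group or NEMO FL mouse 22, 28 or 29 (0.0554 to 0.0717).

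Of 5 other lipoxygenases, Alox12, the platelet-type enzyme, had values of 5.20, 4.78, 4.92, 4.94 and 4.45 in Ripk1 S166A/S166A mice, 5.07, 5.60, 6.65, 6.80 and 6.00 in NEMO IEC-KO mice and 4.48, 4.84, 4.77, 4.29 and 4.54 in NEMO FL mice. The NEMO IEC-KO values lay above those of NEMO FL, and mouse 16 within the Ripk1 S166A/S166A range. Alox12 was higher in NEMO IEC-KO than in NEMO FL colons by 1.44 (limma adjusted p = 8.87e-04) and lower in Ripk1 S166A/S166A colons than in NEMO IEC-KO colons (log2 difference −1.17, limma adjusted p = 0.00682). Alox12b, known from the skin barrier, was higher in NEMO IEC-KO colons by 0.31 (limma adjusted p = 0.0489), a call lost on leaving out any one of 9 of the 10 mice (all but NEMO IEC-KO mouse 30, 0.0525 to 0.105).

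If mouse 55 was placed among the NEMO IEC-KO mice, the wider-list genes called were Pla2g2a, Slco2a1, Ptgr1 and Dpep1 for NEMO IEC-KO set against NEMO FL, and Ptges3, Slco2a1 and Ptger3 for Ripk1 S166A/S166A set against NEMO IEC-KO. Among females only, Dpep2 (0.0706), Prxl2b (0.0890), Ptges3 (0.112) and Alox12b (0.241) lost their calls between NEMO IEC-KO and NEMO FL colons by limma, and Ptger3 gained one (log2 difference −0.81, adjusted p = 0.0365). Between Ripk1 S166A/S166A and NEMO IEC-KO colons, Cbr1 (0.208), Dpep1 (0.121) and Ptgr2 (0.190) lost theirs with a sex term, and Cbr1 (0.0606), Dpep2 (0.0716) and Ptger3 (0.0640) without mice 94 and 95 (limma adjusted p in each case).

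**Figure D3:**
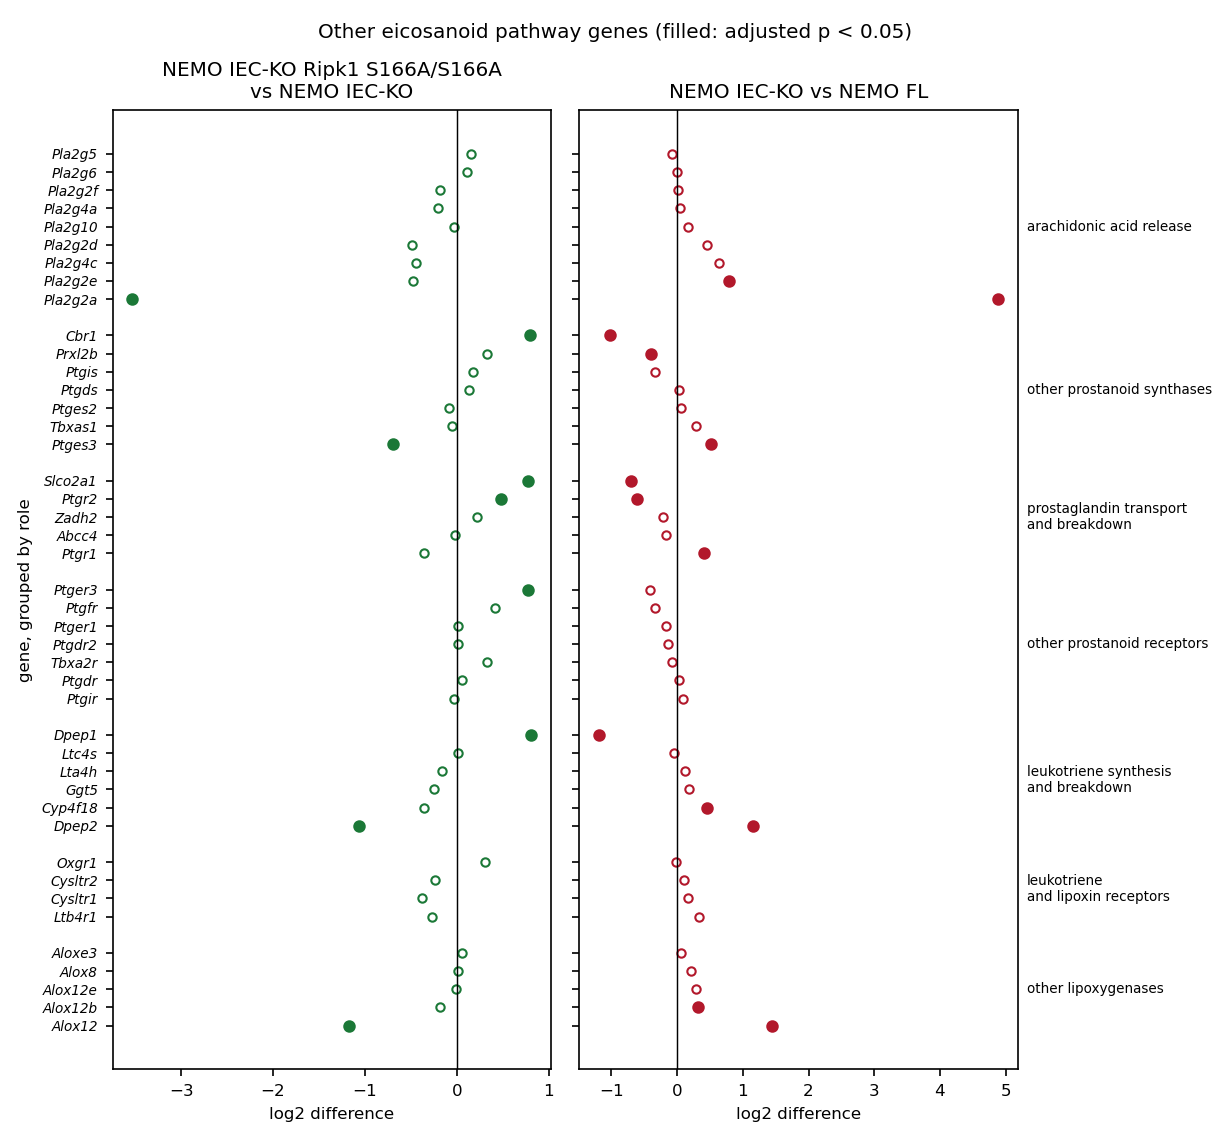
Log2 differences (horizontal axes, scaled separately) of the 43 measured genes of the wider list, grouped by role, for NEMO IEC-KO Ripk1 S166A/S166A minus NEMO IEC-KO on the left and NEMO IEC-KO minus NEMO FL on the right. Filled points passed a limma adjusted p under 0.05, and Pla2g2a lies farthest from 0 in both panels, at −3.53 and 4.88.

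Markers of several cell types moved together with the members. The counts below stand beside 11.6% of all probe sets called higher and 13.8% lower in NEMO IEC-KO against NEMO FL colons. In Ripk1 S166A/S166A against NEMO IEC-KO colons these shares were 9.33% and 9.9%. Of 9 measured neutrophil markers, 8 were higher in NEMO IEC-KO than in NEMO FL colons and 8 lower in Ripk1 S166A/S166A colons than in NEMO IEC-KO colons, and their mean log2 level was 4.30 to 4.68 in Ripk1 S166A/S166A mice, 5.90 to 8.35 in NEMO IEC-KO mice and 4.21 to 4.50 in NEMO FL mice. Of 11 monocyte and macrophage markers, 7 were higher and 1 lower, then 1 higher and 7 lower in the same 2 comparisons, with means of 6.26 to 7.08 in Ripk1 S166A/S166A mice, 7.09 to 8.05 in NEMO IEC-KO mice and 6.66 to 6.83 in NEMO FL mice. Of 6 eosinophil markers, 2 were higher and then 2 lower. Of 6 surface colonocyte markers, 5 were lower in NEMO IEC-KO than in NEMO FL colons and 6 higher in Ripk1 S166A/S166A colons than in NEMO IEC-KO colons, with means of 11.3 to 11.5 in Ripk1 S166A/S166A mice, 8.69 to 9.79 in NEMO IEC-KO mice and 11.5 to 11.8 in NEMO FL mice. Of 6 smooth muscle markers, all 6 were lower and then all 6 higher, with means of 11.3 to 12.0 in Ripk1 S166A/S166A mice, 8.75 to 10.9 in NEMO IEC-KO mice and 11.5 to 12.0 in NEMO FL mice, the fifth NEMO IEC-KO mouse being lowest. Of 5 fibroblast markers 2 were lower in NEMO IEC-KO than in NEMO FL colons, and of 7 general colon epithelium markers 0 were called by limma in any of the comparisons. The part of these cell types in the members' differences was not tested.

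Over the 15 mice, Ptgs2 went with the mean of the neutrophil markers at Pearson r = 0.876, and at 0.813 after each group's mean was taken off. For Alox5ap these values were 0.910 and 0.798, and for Ptges 0.910 and 0.746. The within-group values pool the groups and rest mostly on NEMO IEC-KO mice, whose neutrophil means ran from 5.90 to 8.35. In Ripk1 S166A/S166A mice these means ran from 4.30 to 4.68, and in NEMO FL mice from 4.21 to 4.50. Ptgs2 went the other way in Ripk1 S166A/S166A mice. There, mice 27 and 56 had the highest Ptgs2 (both 6.67) and the lowest neutrophil means (4.32 and 4.30). Mice 94 and 95 had the lowest Ptgs2 (6.01 and 5.78) and the highest means (4.68 and 4.59). Hpgd went with the surface colonocyte (0.955, and 0.667 within groups) and the smooth muscle markers (0.885 and 0.626). Against the general colon epithelium markers Hpgd gave −0.0647 and −0.703. Hpgds also went with the surface colonocyte (0.922 and 0.513) and the smooth muscle markers (0.902 and 0.688). Hpgds against neutrophil markers gave −0.926 and −0.556, against mast cell markers −0.658 and −0.602, and against tuft cell markers −0.158 and −0.305. Alox5 was most like the mast cell markers (0.622 and 0.607) and Alox15 the colon epithelium markers (0.556 and 0.612). The points share tissue pieces, arrays and genotype, and these values are descriptions with no test.

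**Figure D4:**
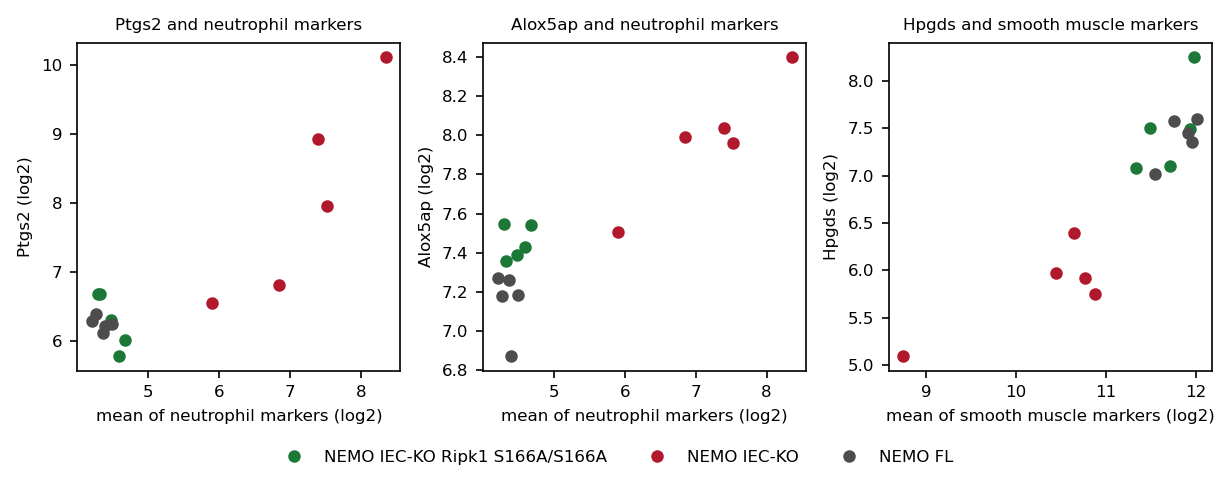
Log2 values of Ptgs2, Alox5ap and Hpgds (vertical axes) against the mean log2 level of 9 neutrophil markers (left and middle) or 6 smooth muscle markers (right), 1 point per mouse of NEMO IEC-KO Ripk1 S166A/S166A, NEMO IEC-KO and NEMO FL. The 5 NEMO IEC-KO mice are spread along both axes, with the fifth mouse at the end in each panel. The other 2 groups lie together for Ptgs2 and Hpgds, while for Alox5ap all Ripk1 S166A/S166A points lie above those of NEMO FL.

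Among members, Ptges followed Ptgs2 (r = 0.909 over 15 mice, 0.821 within groups) and Alox5ap followed Ptges (0.931 and 0.800) and Ptgs2 (0.835 and 0.708). Hpgd and Hpgds, which fell together in NEMO IEC-KO colons, gave 0.873 over all mice and 0.386 within groups. The genes of the array whose values were most like those of Ptgs2 were Inhba (0.963), Ifng (0.962) and Il1a (0.960), all cytokines. Ptges was most like Trem1 (0.953), Lilr4b (0.951) and Slfn1 (0.948), and Alox5ap like Lilr4b (0.958), Lilrb4a (0.957) and Clec4e (0.946), where Trem1, the Lilr genes and Clec4e encode receptors of myeloid cells. Hpgd was most like Cela1 (0.986), Gm5485 (0.980) and Bhlhe41 (0.977), and Hpgds like Pdcd4 (0.967), Myocd, a regulator of smooth muscle genes (0.966), and Tns1 (0.958). For Ptger2 the 3 were Zfp935 (0.925), Dmxl1 and Prex2, and for Ptger4 they were Edem3 (0.851), Ifnlr1 and Os9. For Alox5 they were Them5 (0.807), Irx4 and Wdr70, and for Alox15 they were Irf7 (0.870), a factor of the interferon response, Capn5 and H2-DMb1.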

How the data were processed

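Colon RNA of 15 mice (5 per genotype, 11 weeks old, 100 ng per array) was hybridised to Clariom S mouse arrays, with a single array for each mouse. The authors deposited 1 table of 22142 probe sets, whose values are read here as log2 intensities (1.69 to 13.6, array medians 6.27 to 6.36). Affymetrix Expression Console and Transcriptome Analysis Console are named in the submitters' processing notes, and the normalization is not given in the sources used here. The number of arrays, not a read depth, limits the precision. Groups were taken from the sample titles. The probe annotation gave 1 symbol to 19527 probe sets and none to 2615. Symbols matched RefSeq (GRCm38.p6), used for names and promoter windows.

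Differences were estimated for 1 pair of groups at a time, without covariates, by lmFit and eBayes of limma 3.58.1 under R 4.3.3. The p-values of all probe sets were adjusted together by Benjamini-Hochberg, with calls at an adjusted p under 0.05. No probe set was filtered out. The steps were tested on simulated data. Intervals are 95% confidence intervals. Male mice had a mean log2 value over 5 for the 3 measured Y-chromosome genes. Named were all members, called genes of the wider list (at most 3 per role and comparison with the largest change) and, per member, the 3 genes with the highest Pearson correlation over the 15 mice. Lta4h, Ltc4s and Pla2g4a were named outside that rule, for their place in the pathway. The members, lists, motifs and tests were chosen with earlier results of these data known. Separate mice are the replicates. Alternatives were 1 fit of all groups, trend with robust variances, array weights, median centring, quantile normalization, filters on dim probe sets, a fold change over 1.4999 with an unadjusted p under 0.05, an adjusted p under 0.01, mouse 55 counted as NEMO IEC-KO, a sex term and each mouse left out. Those within a sex, the sex term for Ripk1 S166A/S166A against NEMO FL and leaving out mice 94 and 95 were added after seeing the data.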

Additional observations from a re-analysis of the deposited data

Results flagged for a closer look

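Of 69 groups of 5 mice tested for 1 value far from the others by Dixon's test, 7 were flagged, where chance flags about 1 in 20. Alox5ap in NEMO FL mouse 22 was 6.87, with the nearest mouse of its group at 7.18. Pla2g2a in NEMO IEC-KO mouse 16 was 10.9, with the nearest at 11.6. Cbr1 was 7.56 in the fifth NEMO IEC-KO mouse, with the nearest at 8.58, and 9.66 in NEMO FL mouse 55, with the nearest at 9.56. Ptger3 in NEMO FL mouse 55 was 6.66, with the nearest at 7.34. Ptgr1 in Ripk1 S166A/S166A mouse 95 was 6.02, with the nearest at 6.71. Slco2a1 in Ripk1 S166A/S166A mouse 33 was 8.78, with the nearest at 8.38.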

How the results depend on the processing

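Of 1520 values of single genes under the alternatives, 1359 kept their direction and their side of the threshold, 119 lost a call, 9 gained one (6 of them Pla2g2e between the 2 deleted groups) and 33 changed sign, and none of the sign changes was of a called value. The 1520 include Ripk1 S166A/S166A against NEMO FL, where none of these genes was called in the main fit and no call could be lost. They also include alternatives that set another threshold. For NEMO IEC-KO against NEMO FL colons the 5628 probe sets, 7 members and 13 wider genes called became 3166 probe sets by the fold change criterion, 3296, 4 and 8 at an adjusted p under 0.01, 1807, 3 and 4 with mouse 55 counted as NEMO IEC-KO, and 3688 probe sets and 4 members in females. Leaving out 1 mouse gave 4372 to 5843 probe sets, 5 to 7 members and 10 to 14 wider genes. For Ripk1 S166A/S166A against NEMO IEC-KO colons the 4258 probe sets, 5 members and 9 wider genes became 2678 probe sets by fold change, 2109 probe sets and 2 members at an adjusted p under 0.01, 1434, 1 and 3 with mouse 55 counted as NEMO IEC-KO, and 2438 probe sets and 2 members without mice 94 and 95. Leaving out 1 mouse gave 3132 to 4210 probe sets, 4 to 5 members and 8 to 9 wider genes. For Ripk1 S166A/S166A against NEMO FL colons the 12 probe sets became 21 in 1 fit of all groups, 7 with trend and robust variances, 28 with array weights, 228 by fold change, 79 with a sex term and 4 without mice 94 and 95. Leaving out 1 mouse gave 8 to 43, and 0 members and 0 wider genes by limma. By fold change 1 member (Alox15, 0.66) and 1 wider gene (Pla2g2a, 1.35) were called there.

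The values that changed sign were small. For NEMO IEC-KO against NEMO FL, Alox5 was −0.0132 with mouse 55 counted as NEMO IEC-KO. For Ripk1 S166A/S166A against NEMO IEC-KO, Alox5 was 0.0648 with that mouse moved and 0.00834 with a sex term or in males, Ptger4 was 0.0352 in both of those, and leaving out 1 mouse gave −0.113 to 0.0726 for Alox5, −0.0197 to 0.209 for Alox15 and −0.132 to 7.15e-05 for Ptger4. For Ripk1 S166A/S166A against NEMO FL, Ptger4 was −5.52e-04 with array weights and −0.0078 with mouse 55 moved, Dpep2 −0.0470 and Slco2a1 −0.0395 with mouse 55 moved, and Cyp4f18 −0.0223 and Prxl2b 0.00191 without mice 94 and 95. With a sex term there, Ptgs2 was −0.00407, Ptges −0.0460, Hpgds −0.109, Cyp4f18 −0.0468 and Ptgr1 −0.128. Leaving out 1 mouse there gave −0.0583 to 0.164 for Ptgs2, −0.103 to 0.190 for Hpgds, −0.0078 to 0.0903 for Ptger4, −0.0470 to 0.239 for Dpep2, −0.0395 to 0.145 for Slco2a1 and −0.0207 to 0.220 for Ptgr1. The cause of each shift was not tested, and fewer mice were fitted where mice were left out. The probe set with the lower mean could not be tried, since no member has a second one. No paired analysis was made, since the sample labels used here give no litter or other pairing of the mice. Signal over background was not analysed here, so no bound was set for dim probe sets.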
